A study of Mus musculus with 6 samples.

Results

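Lumbar 4 and 5 (L4/5) dorsal root ganglia (DRGs) of mice given phosphate-buffered saline (PBS) were described here as a baseline, gene by gene, from 3 of the 6 arrays of the series. The 3 PBS arrays were chosen by their sample titles, and 24623 of 24647 genes in the table were kept, since 24 rows whose symbol had become a calendar date were dropped. The mice were wild-type C57BL/6 males of 8 to 12 weeks that had received PBS by mouth for 13 days, as the vehicle of a wolfberry polysaccharide given to the animals of the other 3 arrays. No comparison with those arrays was made. The treatment protocol deposited with the samples mentions the polysaccharide alone, and the titles and treatment labels were followed. The methods describe 3 separate groups with 3 mice in each, without stating outright whether an array pools mice. The spread over arrays may therefore be partly technical.

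The cell bodies of sensory neurons lie in DRGs, and these neurons carry touch, pain, itch, temperature and limb position from the body to the spinal cord. Each cell body is wrapped by satellite glia, its axon is ensheathed by Schwann cells, and fibroblasts, vessels and macrophages fill the space between. Peptidergic nociceptors release neuropeptides such as CGRP and substance P, non-peptidergic nociceptors carry the receptor tyrosine kinase RET, and large-diameter neurons signal touch and limb position.

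Each array, a GeneChip Mouse Gene ST array that reads a gene with many short probes, gave a log2 intensity per gene. All levels are means over the 3 arrays on this log2 scale, with the SD (n = 3 arrays) where given, and values of single arrays are in the order PBS 1, PBS 2 and PBS 3. Ranks and percentiles order these intensities among the 24623 genes, with rank 1 the highest. An intensity also depends on the probes of a gene, so that the order of different genes is an order of signal and not of transcript number. Rplp0, which encodes a ribosomal protein made in every cell, was at 6.64, 6.73 and 6.57, near the middle of all genes. In whole ganglia, fewer cells of a type and less RNA per cell cannot be told apart.

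The arrays had nearly the same distribution, with medians of 6.45, 6.45 and 6.45 and upper quartiles of 8.04, 8.03 and 8.04, as quantile normalization makes them. Pearson's r across genes, which are not independent replicates, was between 0.992 and 0.994 for the pairs of arrays. The sex labels were matched by the Y-linked genes Ddx3y (9.53, 9.85 and 9.76), Eif2s3y (8.87, 9.26 and 9.15), Uty and Kdm5d, while Xist, which is transcribed from the inactive X of females, was at 4.30, 4.42 and 4.35.

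Signal from genes that DRGs are not known to use was taken from 1119 olfactory and 316 vomeronasal receptor genes, which belong to the nose. They had a median level of 3.51. The 95th percentile of their values was 5.71 on PBS 1, 5.80 on PBS 2 and 5.76 on PBS 3, and these limits are called the dim band. A gene above the band on all 3 arrays was taken as measured above the dim signal. This held for 14697 genes, or 59.7% of the 24623, and 8633 genes were above it on no array. By its construction the band lets some receptor genes through, and 55 of the 1435 were above it on all arrays. Vmn1r159 was the highest of them, at 7.76, 7.79 and 7.88. A mean level over 10 was found for 1221 genes, or 4.96%, and one over 12 for 89 genes.

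**Figure D1:**
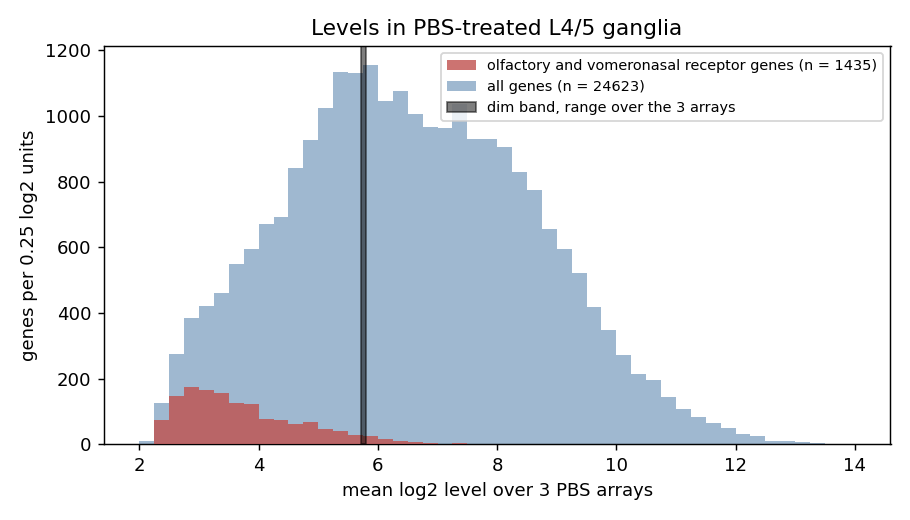
Histogram of the mean log2 level over the 3 PBS arrays (x axis) as the number of genes per 0.25 log2 units (y axis), for 1435 olfactory and vomeronasal receptor genes and for all 24623 genes, with the dim band of the 3 arrays shaded. The receptor genes lie mostly left of the band, and 59.7% of all genes were above it on every array.

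The 30 highest genes were mostly genes of mitochondria and of the neuronal cytoskeleton, with small RNAs among them. Genes of the mitochondrial genome, which encodes subunits of the respiratory chain, took 11 of the 30 places. ND4, a subunit of complex I, was first at 13.70, 13.75 and 13.70, and CYTB of complex III was at 13.42, 13.44 and 13.40. COX3 was the lowest of these 11 at 12.73, 12.98 and 12.98, and ND6, a further mitochondrial gene, had rank 204 at 11.20, 11.75 and 11.57. The table places ND4L and ATP6 on chromosome 1 and the other mitochondrial genes on the mitochondrial chromosome, and which copy their probes read was not examined.

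Among the nuclear genes of the 30, Snap25, which encodes a protein of synaptic vesicle fusion, was at 13.15, 13.06 and 13.06. Nefl, the light neurofilament subunit, was at 13.12, 12.94 and 13.00. Mtap1b (12.97 ± 0.12) and Stmn2 (12.91 ± 0.03) encode microtubule proteins of axons. Sncg, which encodes gamma-synuclein, was at 12.79, 12.96 and 12.94, Rtn3 at 12.85 ± 0.12 and Atp1b1, a subunit of the sodium pump, at 12.73 ± 0.11. The values of these genes differed by less than 0.25 between arrays, so that neighbours in this order often overlapped.

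Lipid synthesis was represented in the 30 by Scd2, a fatty acid desaturase (13.13, 13.02 and 13.08), and Hmgcs1, an enzyme of cholesterol synthesis (12.72, 12.66 and 12.66). Fth1, the heavy chain of ferritin, was at 12.92 ± 0.09, the lysosomal protease gene Ctsb at 12.90 ± 0.06, Cox6a1 at 12.91 ± 0.05 and Calm2, a calmodulin gene, at 12.77 ± 0.11. The kinase gene Mapk3 was at 12.70 ± 0.01 and Serinc1 at 12.68 ± 0.01. The noncoding RNA gene Rn7sk, which encodes a regulator of transcription elongation, had rank 2 at 13.49, 13.49 and 13.51. Snord32a (12.72 ± 0.22) and Mir5099 (12.68 ± 0.04) were the small RNA genes among the 30, and Snord32a had the largest SD of the 30.

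Markers of the cells that make up a DRG were high, and markers of organs outside it lay mostly in or under the dim band. All 17 pan-neuronal and sensory neuron markers were above the band, with a median level of 11.02 at percentile 98.4 of all genes. Tubb3, a neuronal tubulin, was at 11.91, 11.62 and 11.79, Prph, the intermediate filament peripherin, at 11.61, 11.56 and 11.64, and Avil, an actin regulator of sensory neurons, at 11.52, 11.37 and 11.46. The transcription factors of sensory neuron identity, Isl1 (10.46 ± 0.07) and Pou4f1 (9.15 ± 0.16), were lower, and Pou4f1 was the lowest of the 17.

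**Figure D2:**
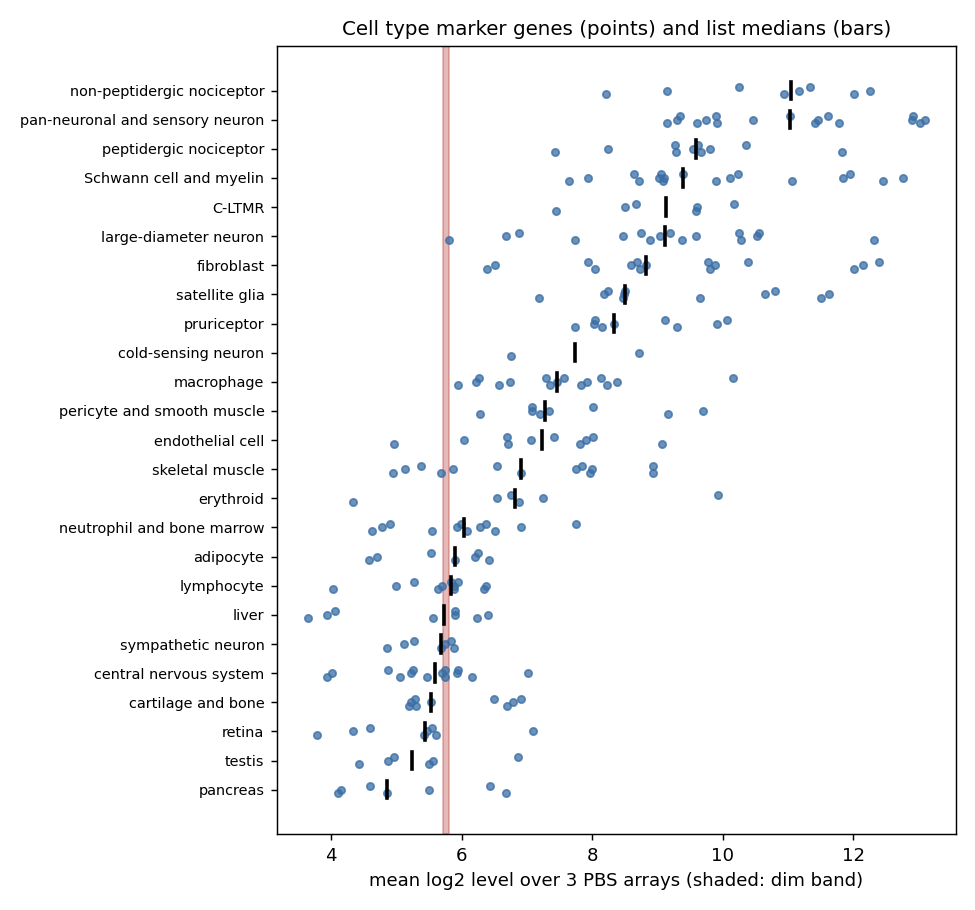
Mean log2 level over the 3 PBS arrays (x axis) of the members of 25 marker lists (y axis), with a point per gene, a bar at the list's median and the dim band shaded. The pan-neuronal, nociceptor, large-diameter, C-LTMR and myelin lists have medians over 9, and the lists of sympathetic neurons, retina, testis and pancreas have medians under the band.

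The classes of sensory neurons were represented unevenly in signal. All 8 non-peptidergic markers were above the band, with a median of 11.05. They included Gfra2, a co-receptor for neurturin (12.31, 12.20 and 12.25), Ret (12.11, 11.89 and 12.04), Scn11a and the itch and pain receptor gene Mrgprd (10.91, 10.87 and 11.03). P2rx3, an ATP-gated channel, was the lowest of the 8 at 8.10, 8.24 and 8.30. All 10 peptidergic markers were above the band too, with a median of 9.58. The neuropeptide genes Calcb (11.77, 11.85 and 11.87) and Tac1 (10.23, 10.44 and 10.38) led them, and Calca, which shares the peptide CGRP with Calcb, was at 9.17, 9.32 and 9.32. The channel genes Trpv1 (9.62, 9.68 and 9.72) and Trpa1 (9.46, 9.62 and 9.56) answer to heat, capsaicin and irritants.

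Of the 16 large-diameter markers, 15 were above the band, against 59.7% of all genes, with a median of 9.12. Nefh, the heavy neurofilament subunit, was at 12.58, 12.15 and 12.20. Pvalb, a calcium buffer of proprioceptors, was at 8.64, 8.15 and 8.62. Runx3, a transcription factor of proprioceptors, was at 6.10, 5.44 and 5.88 and was the member not above the band on PBS 2. The touch neurons called C-LTMRs had 6 of 6 markers above the band, led by Th, the rate-limiting enzyme of catecholamine synthesis (9.96, 10.53 and 10.04). For itch neurons 9 of 9 were above it, from Mrgprx1 (7.73 ± 0.16) to the interleukin receptor gene Il31ra (9.81, 10.35 and 10.05). The cold receptor gene Trpm8 was at 8.77, 8.65 and 8.72.

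Mas-related receptor genes, which mark nociceptors and itch neurons, had 13 of 21 above the band, or 61.9%, against 59.7% of all genes. Mrgpra2a (11.17 ± 0.16), Mrgprd (10.94 ± 0.08) and Mrgpra2b (10.81 ± 0.17) led them, with closely related sequences in the pair Mrgpra2a and Mrgpra2b that the probes may not separate. Mrgprb2, known from mast cells, was at 4.51 ± 0.04, under the band.

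Glial lists were also high. All 17 Schwann cell and myelin genes were above the band, with a median of 9.39. Pmp22, a membrane protein of myelin, was at 12.48, 12.47 and 12.43, and Mag, which joins myelin to the axon, was the lowest at 7.88, 7.41 and 7.64. All 11 satellite glia genes were above it, with a median of 8.51. They ran from Slc1a3, a glutamate transporter (7.18 ± 0.05), to Fabp7, a fatty acid carrier (11.58, 11.80 and 11.51), with the potassium channel gene Kcnj10 at 8.12, 8.24 and 8.16.

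Markers of connective tissue, vessels and macrophages were mostly above the band. All 15 fibroblast markers were above the band, with a median of 8.83, and the matrix gene Dcn (12.29, 12.58 and 12.32) was the highest. For macrophages all 15 were above it, with a median of 7.46. Cd74, of antigen presentation, was at 9.99, 10.54 and 9.93, while Aif1 was at 5.83, 6.06 and 5.94, just over the band. Endothelial cells had 9 of 10 above, with Cdh5 at 9.08, 9.22 and 8.90, and pericytes and smooth muscle had 8 of 8. Of 11 lymphocyte markers, 3 were above the band (Ighm, Nkg7 and Cd3e), fewer than the 59.7% of all genes would give, and the T cell gene Cd8a was at 5.31, 4.91 and 4.76.

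Several neighbouring or distant tissues were near the dim signal. Of 7 sympathetic neuron markers 0 were above the band, against 59.7% of all genes. Dbh, which makes noradrenaline, was at 4.81, 4.82 and 4.94. For the central nervous system 3 of 14 were above it (Aqp4, Mobp and Gad1), and the motor neuron genes Chat (5.06 ± 0.06) and Mnx1 (4.02 ± 0.25) were under it. Liver had 3 of 8, pancreas 2 of 7, retina 1 of 8 and testis 1 of 6. The testis gene was Prm2, which encodes a protamine, at 6.82, 6.87 and 6.91. Erythroid genes were above the band in 5 of 6, with the globin gene Hba-a2 at 9.75, 9.92 and 10.08.

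Receptors for trophic factors were high and their ligands low. All 15 receptor genes were above the band, with a median of 9.85 at percentile 94.2. Besides Gfra2 and Ret these were led by Lifr (11.80, 11.80 and 11.85) and Il6st (11.74, 11.72 and 11.65), which bind cytokines of the interleukin-6 family. The neurotrophin receptors included Ngfr (11.15, 10.92 and 10.89), Ntrk3 (10.35, 10.33 and 10.15) and Ntrk2 (9.32, 9.10 and 9.14). Among the GDNF family co-receptors, Gfra1 was at 7.42, 7.41 and 7.43, under Gfra3 at 9.83, 9.82 and 9.90. Of 10 ligand genes 4 were above the band, against 59.7% of all genes. Among these 4 were Igf1 (7.33, 7.63 and 7.32), Bdnf (6.30, 6.11 and 6.36) and Pspn. Gdnf was the lowest ligand at 4.48, 4.34 and 4.35, and the median of the ligands was 5.70.

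Voltage-gated sodium channels carry the action potential of sensory neurons. Scn7a, a channel-like gene of glia and neurons, was the highest alpha subunit gene at 12.08, 12.18 and 12.01. The channels of nociceptors followed, Scn10a at 11.96, 11.83 and 11.87, Scn11a at 11.30, 11.38 and 11.30 and Scn9a at 9.41, 9.56 and 9.37. Neighbours in this order did not overlap. Scn8a (9.22, 8.72 and 8.79) and Scn1a (8.87, 8.65 and 8.71) overlapped. Lower still were Scn2a1 (7.63 ± 0.18) and Scn3a (6.81 ± 0.06), and the skeletal muscle channel gene Scn4a was at 5.74, 5.82 and 5.52, not above the band on all arrays. All 4 beta subunit genes were above it, and Scn2b was the lowest at 8.28 ± 0.06.

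Of 20 sensory TRP, Piezo and ASIC channel genes, 19 were above the band, against 59.7% of all genes. The table lists Piezo and ASIC genes under older symbols. Piezo2, the touch channel, was the highest at 10.92, 10.93 and 10.83, and Piezo1 was at 6.56, 6.85 and 6.72. The acid-sensing channel gene Asic3 was at 10.09, 9.46 and 9.77. Trpv3, the one gene not above the band on all arrays, was at 5.80, 5.74 and 5.51.

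Acetylcholine receptors were of interest to the study. Of 13 nicotinic subunit genes 8 were above the band, close to the 59.7% of all genes. Chrna7 (9.67, 9.39 and 9.47) and Chrna3 (9.51, 9.53 and 9.29) overlapped at the top, followed by Chrna6 (8.98, 9.15 and 9.02) and Chrnb4 (8.92, 8.87 and 8.60). Chrnb3 was at 8.34, 8.26 and 8.03, while the muscle subunit gene Chrna1 (5.15 ± 0.09) and Chrna5 (4.66, 4.83 and 4.37) were under the band. Of 5 muscarinic genes 3 were above it, Chrm2 (6.97, 6.73 and 6.80), Chrm1 (5.94, 5.98 and 5.89) and Chrm4 (5.80, 6.05 and 5.81), with Chrm1 and Chrm4 overlapping.

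Secreted peptides and granins, the proteins of dense-core vesicles, had 18 of 24 genes above the band, against 59.7% of all genes. Scg3 was the highest at 12.45, 12.36 and 12.40. Besides Calcb and Tac1, Nmb (9.90, 9.93 and 10.06) and Sst (9.04, 9.42 and 9.42) were high. The injury-induced peptides galanin, encoded by Gal (7.41, 7.76 and 7.44), Npy (5.67, 6.10 and 5.87) and Vip (3.82, 4.02 and 3.99) were lower, and Npy and Vip were not above the band on all arrays.

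Regeneration-associated genes, which neurons raise after axon injury, spanned the scale in these uninjured ganglia. Of 24 such genes 19 were above the band, against 59.7% of all genes, with a median of 7.51. Tppp3, a tubulin-binding protein gene, was at 11.60, 11.50 and 11.67, Stat3 at 11.38, 11.29 and 11.23 and Gap43 at 9.61, 9.63 and 9.57. The transcription factors Jun (9.41, 9.51 and 9.31), Atf3 (7.31, 7.62 and 7.57) and Sox11 (6.07, 6.28 and 6.43) were lower. Arg1, which encodes arginase, was at 5.55, 5.66 and 5.99, above the band on PBS 3 alone. Sprr1a, an injury-induced gene of sensory neurons, was at 5.70, 8.65 and 7.64, and lay under the band on PBS 1.

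Growth-inhibitory genes had 16 of 19 above the band, against 59.7% of all genes. Rtn4, which encodes Nogo, was at 10.21, 10.25 and 10.28. The receptor gene Rtn4r was at 6.48, 6.20 and 6.19. Tnr, a matrix protein gene, was at 7.64, 7.54 and 7.44 and the transcription factor gene Klf4 at 6.52, 6.85 and 6.56. Sema3a, a repulsive guidance gene, was the lowest at 4.30, 4.32 and 4.35.

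Further genes named by the study were also measured. Galr1, a galanin receptor gene, was at 8.72, 8.67 and 8.59, Foxred1 at 8.66, 8.61 and 8.68 and the oxygen sensor gene Egln3 at 8.00, 8.53 and 7.82. The pseudogenes 4933409K07Rik (7.81, 7.86 and 7.78) and Gm3893 (7.08, 7.09 and 7.11), the iron reductase gene Steap3 (7.47, 7.52 and 7.49) and Agxt2l1 (5.91, 5.84 and 5.90) each varied by less than 0.1 between arrays.

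Immediate early genes, which answer to stimulation and handling, had 7 of 10 above the band, against 59.7% of all genes. Jun and Nr4a1 (9.16, 9.24 and 9.26) were high, with Fos at 6.62, 6.23 and 6.35 and Npas4 at 5.22, 5.21 and 5.02. Of 15 housekeeping genes all were above the band, from Rplp0 to B2m (12.26, 12.40 and 12.26).

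Hox genes, which are numbered along the body axis from head to tail, followed their numbers. Of 30 genes in paralog groups 1 to 10, 24 were above the band, and of 9 in groups 11 to 13, 0 were. The share over all genes was 59.7%. Hoxc6 (8.14 ± 0.14), Hoxa9 (7.89 ± 0.20), Hoxc8 (7.87 ± 0.15) and Hoxc9 (7.85 ± 0.09) were the highest. Of the genes of groups 11 to 13, Hoxd11 was the highest, at 6.06.

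Symbol classes differed in the share of genes above the band, which was 59.7% over all genes. Ribosomal protein genes had 69 of 83 above it, with a median of 7.36 and Rpl28 the highest at 12.08. Small nucleolar RNA genes had 79 of 98, with a median SD of 0.311, against 0.113 for all genes. By the RefSeq class of their current symbol, 65.7% of 20187 protein-coding genes and 26.9% of 2038 long noncoding RNA genes were above the band. On the Y chromosome 8 of 52 genes were above it, and on the X chromosome 46.3% of 1053.

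MicroRNA genes encode short RNAs that pair with mRNAs through the seed at bases 2 to 8. Of 526 such genes, 155 were above the band, against 59.7% of all genes. The probes of a microRNA gene may read its precursor, so that these values are not levels of the mature microRNA. RefSeq (GRCm38.p6) holds a mature sequence for 433 of the 526. Mir5099 and Mir449b (12.04, 12.00 and 12.09) were the highest. The mature sequences of the next 3 genes are shown with those of the cluster of Mir183, Mir96 and Mir182, which is known from sensory organs, with the seed in capitals.
mmu-miR-453: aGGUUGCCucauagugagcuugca
mmu-miR-568: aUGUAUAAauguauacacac
mmu-miR-5125: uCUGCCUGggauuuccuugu
mmu-miR-183-5p: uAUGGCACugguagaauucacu
mmu-miR-96-5p: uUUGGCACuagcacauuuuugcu
mmu-miR-182-5p: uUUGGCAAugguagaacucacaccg
All 6 seeds differ from each other. Mir453 was at 10.30, 10.75 and 10.54, Mir568 at 9.90, 10.11 and 9.86 and Mir5125 at 9.78, 10.04 and 9.96. The sensory cluster lay under the dim band, with Mir183 at 3.10, 3.23 and 3.27, Mir96 at 4.41, 4.59 and 4.31 and Mir182 at 4.46, 3.93 and 3.99. The rest of the 10 highest were Mir692-1, Mir1195, Mir467c, Mir703 and Mir680-2, with levels from 9.28 to 9.89.

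Promoters differed between high and low genes. RefSeq promoters run from 250 bases before to 50 bases after a gene's start, and 15017 genes of the table had a single promoter there. The ratio of CpG pairs observed to those expected from the base content had a median of 0.812 in the highest decile of genes by level and 0.123 in the lowest, where deciles are 10 classes of equal size cut by rank. GC content had medians of 63.3% and 38.7% in the same deciles. TATAAA, anywhere in the promoter on the strand of the gene, was in 4.26% of promoters of the highest decile and 22.6% of the lowest. Its share of all 15017 was 9.23%. Between 40 and 11 bases before the start it was in 1.26% and 5.39%, against 3.10% of all. This nearer share was largest in decile 2, next to the lowest, at 6.32%. The part of base content in the shares of TATAAA was not tested. Spearman's rho between level and CpG ratio was 0.629 across genes, which are not independent, and the base content of the probes was not examined. With the 1212 receptor genes left out, TATAAA was in 4.20% and 19.1% of the highest and the lowest decile.

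**Figure D3:**
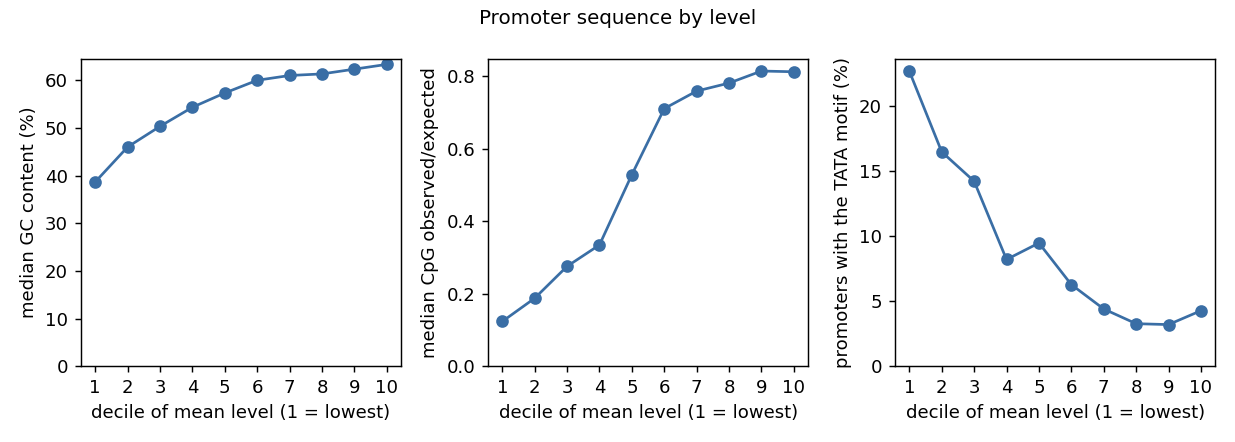
Median GC content, median ratio of observed to expected CpG and percent of promoters with the TATA motif (y axes) in deciles of 15017 genes by mean log2 level (x axis, 1 the lowest). GC content and CpG ratio are higher in high deciles, with medians of 63.3% and 0.812 in the highest and 38.7% and 0.123 in the lowest.

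The promoters of the highest and the lowest of these 15017 genes by level, Mtap1b and the olfactory receptor gene Olfr843, are shown with each CpG in capitals (GRCm38.p6).
Mtap1b, chr13:99516553-99516852, strand -: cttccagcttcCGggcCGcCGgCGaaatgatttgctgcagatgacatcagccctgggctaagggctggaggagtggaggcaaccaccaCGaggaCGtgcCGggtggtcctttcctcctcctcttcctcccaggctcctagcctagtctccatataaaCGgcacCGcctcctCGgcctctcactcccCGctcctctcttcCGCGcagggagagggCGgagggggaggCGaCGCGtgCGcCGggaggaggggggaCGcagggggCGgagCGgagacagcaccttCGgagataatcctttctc
Olfr843, chr9:19249414-19249713, strand -: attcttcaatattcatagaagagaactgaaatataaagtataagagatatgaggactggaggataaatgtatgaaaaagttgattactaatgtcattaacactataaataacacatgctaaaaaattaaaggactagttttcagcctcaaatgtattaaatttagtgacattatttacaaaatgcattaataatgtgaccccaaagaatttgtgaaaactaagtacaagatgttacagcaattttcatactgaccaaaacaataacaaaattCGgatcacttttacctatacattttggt
The Mtap1b promoter held 23 CpG pairs at a GC content of 65.7%, and the Olfr843 promoter held 1 at 27.3%. Their CpG ratios were 0.711 and 0.179, both between the medians of the highest decile (0.812) and the lowest (0.123). Olfr843 was at a mean level of 2.20. Both held TATAAA, the Mtap1b promoter 99 bases before the start and the Olfr843 promoter 219 and 148 bases before it. This pair therefore does not show the difference in TATAAA between the highest and the lowest decile.

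The spread between arrays was small for most genes. The median SD over the 3 arrays was 0.113, the 95th percentile was 0.303, and 42.6% of genes had an SD under 0.1. The median SD was 0.0814 in the highest decile of genes by level and 0.145 in the lowest. An SD over 0.5 was found for 147 genes, or 0.597% of all, of which 41 were above the band on all arrays and 83 on none. Among genes above the band, the steadiest were Aebp2 (8.59, 8.59 and 8.59), Tmem62, Yif1b, Tmem176b, Ndufb9, Rasal3, 3110001D03Rik, 2310039H08Rik, Anks3 and Trappc1, with SDs up to 0.00228. An SD of 3 values is a rough estimate.

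**Figure D4:**
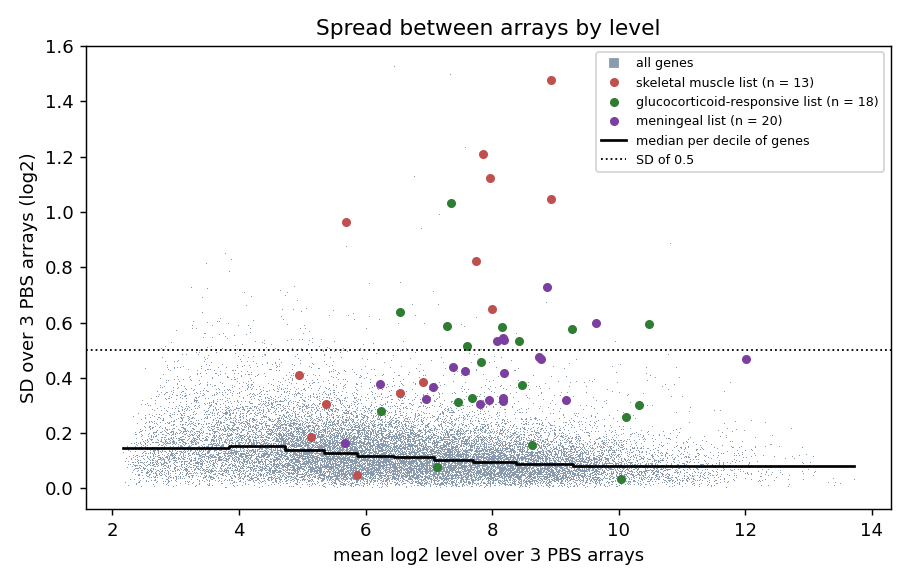
SD over the 3 PBS arrays (y axis, log2) against mean log2 level (x axis), with a dot per gene, the median SD of each decile of genes as a black line and a dotted line at 0.5. The line falls toward high levels to 0.0814, and members of the skeletal muscle, glucocorticoid-responsive and meningeal lists stand above it. The last 2 lists were written after the values were seen.

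The 41 most variable genes above the band were sorted by the array farthest from the gene's own mean. This puts every gene in the set of a single array. For some, such as Hoxd10 (6.57, 6.08 and 7.14), another array was almost as far. The farthest array was PBS 2 for 23 of the 41, lower in 12 and higher in 11. It was PBS 3, always higher, for 11 and PBS 1, always lower, for 7. Over all genes, PBS 1, PBS 2 and PBS 3 held the highest value for 36.9%, 34.6% and 28.5% of genes. The median deviation of all genes from their own mean was 0.00 on each array.

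The 12 genes low on PBS 2 were genes of contracting muscle and its metabolism. Myh4, the myosin heavy chain of fast fibres, was at 9.78, 7.22 and 9.79, the largest SD of genes above the band. Acta1, skeletal muscle actin, was at 9.42, 7.73 and 9.65, the calcium pump gene Atp2a1 at 8.46, 6.46 and 8.64 and Myl1, a myosin light chain, at 8.27, 6.15 and 8.30. PBS 1 and PBS 3 lay close together for each, and PBS 2 was more than 1 log2 unit lower. Actn3, Car3, Tnnt3, Neb, Casq1, Tnnc2, Pygm and Eno3 completed the set, with SDs from 0.52 to 1.12.

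All 13 genes of the skeletal muscle list had their lowest value on PBS 2, against 36.3% of all genes. The median deviation from the gene's own mean was 0.33 on PBS 1, -0.75 on PBS 2 and 0.43 on PBS 3. Of the 13 genes, 9 were above the band on all arrays, PBS 2 included, against 59.7% of all genes. Myh4 and Acta1 were among these 9. Skeletal muscle lies around the vertebrae that enclose the ganglia, and the part of adhering tissue in these values was not tested. Adipocyte genes were also lowest on PBS 2 in 6 of 7, with Fabp4 at 6.58, 5.51 and 6.55.

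The promoters of Myh4 and Acta1, the highest members of the muscle list, are shown with TATAAA and the CArG box, the binding motif of serum response factor, in capitals (GRCm38.p6).
Myh4, chr11:67237562-67237861, strand +: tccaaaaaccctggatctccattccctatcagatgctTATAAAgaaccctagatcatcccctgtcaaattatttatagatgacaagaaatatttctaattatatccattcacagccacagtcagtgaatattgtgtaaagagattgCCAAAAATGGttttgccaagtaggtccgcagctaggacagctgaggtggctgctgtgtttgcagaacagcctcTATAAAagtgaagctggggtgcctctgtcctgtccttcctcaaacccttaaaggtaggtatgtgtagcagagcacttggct
Acta1, chr8:123894726-123895025, strand -: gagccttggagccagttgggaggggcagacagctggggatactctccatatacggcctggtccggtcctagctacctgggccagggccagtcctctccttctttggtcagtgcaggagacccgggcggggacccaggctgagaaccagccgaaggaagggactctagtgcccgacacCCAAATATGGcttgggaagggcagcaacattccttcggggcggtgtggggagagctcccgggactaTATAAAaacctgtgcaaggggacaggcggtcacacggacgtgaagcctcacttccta
Myh4 held TATAAA 213 and 31 bases before its start and a CArG box 104 bases before it. Acta1 held TATAAA 7 bases and a CArG box 73 bases before its start. The CArG box, searched on the strand of the gene and reading the same on both, was in 1.57% of all 15017 promoters and did not overlap TATAAA in these promoters. Of the 10 genes of the muscle list with RefSeq promoters, Myh2 and Myh1 also held TATAAA and no other held a CArG box.

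The 11 genes high on PBS 2 included Ranbp3l (8.32, 9.69 and 8.57), the joint lubricant gene Prg4 (8.24, 9.57 and 8.74), fibronectin (Fn1, 9.46, 10.51 and 9.83), the macrophage lysozyme gene Lyz2 (7.90, 8.99 and 8.22) and Trp53i11 (9.19, 10.27 and 9.28). The transporter and channel genes Slc47a1, Slc22a8 and Kcnj13 and Fam180a were in the set, as were the small RNA genes Rn5s20 (9.97, 11.74 and 10.72) and Snord70. The choice of these genes fixes that PBS 1 and PBS 3 were both lower than PBS 2.

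Of 15 fibroblast markers, 14 had their highest value on PBS 2, against 34.6% of all genes, with a median deviation of 0.22 there. On PBS 1, 14 of the 15 had their lowest value, against 35.0% of all genes. Their median deviations were -0.17 on PBS 1 and -0.06 on PBS 3. Ptgds, a prostaglandin synthase gene, was at 11.56, 12.49 and 11.97 and Osr1, a transcription factor gene of connective tissue, at 8.41, 9.28 and 8.51. Macrophage markers were highest on PBS 2 in 13 of 15, with a median deviation of 0.20, and lowest on PBS 1 in 11 of 15, with -0.13. A list of 20 genes known from the meninges, which continue over the ganglion as its sheath, was written after these values were seen. Of these, 19 were highest on PBS 2, with a median deviation of 0.47, as a description with no test. Slc13a4 (8.37, 9.28 and 8.65), Aldh1a2, a retinoic acid enzyme gene (7.81, 8.63 and 8.09), and Crabp2 (7.32, 8.06 and 7.33) were among them, and Tbx18 (5.86, 5.59 and 5.56) was not. The meningeal list holds 5 genes with an SD over 0.5, Ranbp3l, Slc47a1, Slc22a8, Kcnj13 and Cldn11. On PBS 1, 16 of the 20 meningeal genes had their lowest value, with a median deviation of -0.34. The choice of these 5 genes by spread fixes part of both counts. Meningeal and fibroblast lists share Ptgds, Osr1 and Slc6a13. The part of the sheath in these values was not tested.

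The 11 genes high on PBS 3 included Zbtb16 (6.55, 6.99 and 8.52), the kinase gene Sgk1 (6.88, 7.03 and 7.96), the immunophilin gene Fkbp5 (7.28, 7.33 and 8.20), Ddit4 (7.98, 8.28 and 9.02), the metallothionein gene Mt2 (9.98, 10.34 and 11.14) and Hif3a (5.99, 6.42 and 7.24). These 6 are known as glucocorticoid-responsive genes in other tissues. Srd5a2, a steroid reductase gene, was at 6.14, 6.09 and 8.07, and Slc9a3, Mertk, Hoxd10 and Ms4a4a completed the set. A list of 18 glucocorticoid-responsive genes was written after these values were seen. Of these, 16 were highest on PBS 3, against 28.5% of all genes, and 16 lowest on PBS 1, against 35.0%. Their median deviations were -0.36, -0.12 and 0.40, as a description with no test. The list holds the 6 genes above, Mertk and Per1, which are among the most variable genes above the band. The choice of these 8 genes by spread fixes part of both counts. The clock gene Per1, which glucocorticoids also raise, was at 8.63, 9.38 and 9.76, and Cdkn1a (10.04 ± 0.03) and Angptl4 (7.20, 7.04 and 7.13) did not follow.

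The 7 genes low on PBS 1 were Per1, Cldn11, a tight junction gene (9.02, 10.21 and 9.70), the small RNA genes Snord13 and Snord82, and the neutrophil granule genes Lcn2 (7.06, 8.25 and 7.94), S100a9 (5.83, 6.92 and 6.79) and Ngp (6.26, 7.42 and 7.07). Of 12 neutrophil and bone marrow genes, 10 were lowest on PBS 1, against 35.0% of all genes. Their median deviations were -0.48 on PBS 1, 0.23 on PBS 2 and 0.16 on PBS 3. Of the 12, 6 were above the band, against 59.7% of all genes. Elane (6.08 ± 0.05) and Mpo (5.55 ± 0.09), granule genes of immature neutrophils, were not lowest on PBS 1, while Ctsg, a further granule gene of these cells, was, at 4.71, 4.94 and 5.07.

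**Figure D5:**
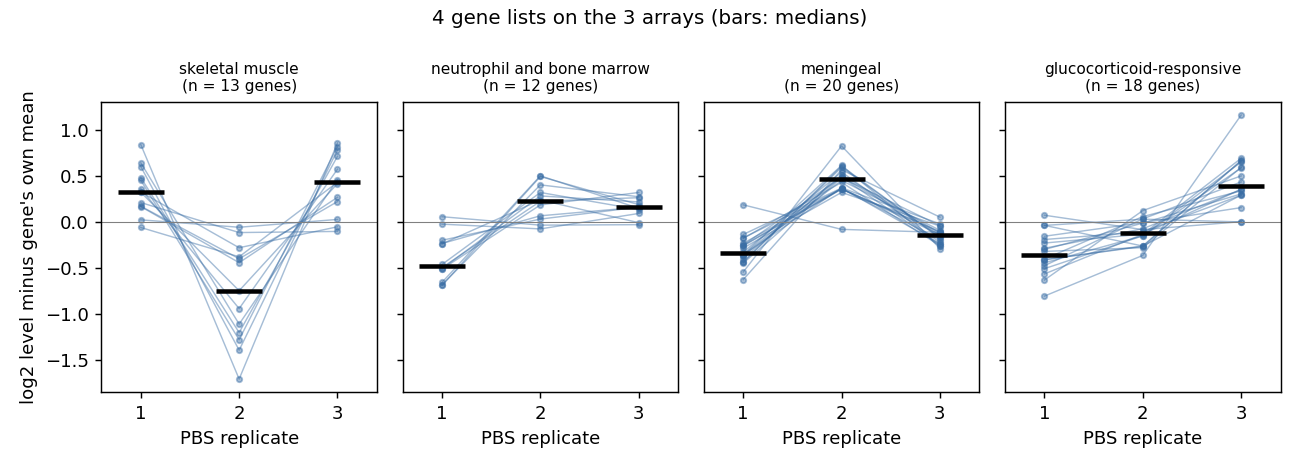
Log2 level minus the gene's own mean over the 3 arrays (y axis) on each PBS replicate (x axis) for the members of 4 lists, with the points of a gene joined by a line and a black bar at the list's median. Muscle genes are low on replicate 2 (median -0.75), neutrophil genes low on replicate 1 (-0.48), meningeal genes high on replicate 2 (0.47) and glucocorticoid-responsive genes high on replicate 3 (0.40), the last 2 lists having been written after the values were seen.

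Among neuronal lists, large-diameter markers were highest on PBS 1 in 14 of 16, against 36.9% of all genes. Their median deviation there was 0.14, and Nefh was at 12.58. C-LTMR markers were lowest on PBS 1 in 6 of 6, against 35.0% of all genes. Their median deviations were -0.12 on PBS 1 and 0.09 on PBS 2. Itch neuron markers were lowest on PBS 1 in 8 of 9, with a median deviation of -0.22. The neuropeptide gene Nts (7.54, 8.49 and 8.03) was the most variable of the itch neuron markers. Pan-neuronal markers were lowest on PBS 2 in 12 of 17, against 36.3% of all genes, with a median deviation of -0.08. They were also highest on PBS 1 in 11 of 17, with a median deviation of 0.07. Large-diameter markers were lowest on PBS 2 in 10 of 16, with a median deviation of -0.09.

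A single array stood more than 1 log2 unit beyond both others, while those lay within 0.5 of each other, for 22 genes above the band on at least 1 array. PBS 2 was the low array for 16 of them, among them Mylpf (6.33, 4.58 and 6.15), Ttn, Trdn and Mybpc2 of muscle besides the genes above. PBS 3 was the high array for Srd5a2, Zbtb16 and Slc9a3 and the low array for the interferon-induced gene Gbp4 (5.79, 5.78 and 4.71). PBS 2 was high for Ranbp3l, and PBS 1 was low for Chi3l3 (4.75, 5.80 and 5.92), a gene of activated macrophages.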

How the data were processed

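L4/5 DRGs of PBS-treated mice were measured on 3 arrays. In R, the authors used expresso with MAS5 to combine the probes of a gene, applied a rule for leaving out outlier arrays, by which no array is stated to have been dropped, quantile-normalized the arrays and deposited log2 values, 1 per gene symbol and array. Gene ST arrays lack the mismatch probes that the original MAS5 uses, and neither its handling nor the genome build is given in the sources used here. Quantile normalization equalizes the arrays, so that a change shared by most genes cannot be seen. Columns of single LBP arrays and their ratios (6 in all) and the authors' fold changes, test statistics and p-values were not used.

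Mean, SD, rank, percentile and the dim band were computed with Python 3.11.15, numpy 2.4.6 and pandas 2.3.3, after the functions were tested on simulated data. No test between groups was made. Genes were named by a rule: the 30 highest, the 20 largest and 10 smallest SDs among genes above the dim band, the highest and lowest members of each list and those needed to describe it by role, the genes named by the study, and the 10 highest microRNA genes. Members and lists were chosen with earlier results of these data known. There were 39 lists and 2 written after the values were seen. Of the 24623 symbols, 21227 are current in RefSeq (GRCm38.p6) and 23483 are current or older names with a single match. List genes under an older symbol were matched this way. Igkc, Hba-a1, Hbb-b2, Hbb-bt and Cntf were not matched and are not analysed here. Some genes that the rule takes are not reported here. Sequences are from RefSeq. Alternatives changed the band, the arrays, the centring and the ranking. The number of arrays limits the precision.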

Additional observations from a re-analysis of the deposited data

How the results depend on the processing

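The number of genes above the dim band was 14697, and it was 11000 with the 99th percentile of the receptor genes, 14618 with olfactory receptor genes alone, 15619 with mean levels and 14718 with the date symbols kept. Without 1 array it was 14828 to 15037. The median SD of 0.113 was 0.0976 over genes above the band alone and 0.0843 to 0.105 without 1 array. Of the 147 genes with an SD over 0.5, 41 were above the band, and without 1 array the count was 189 to 344, the highest without PBS replicate 3. An SD of 2 values scatters more than an SD of 3. Centring each array on its median gave 0.113 and 148. Of the 30 highest genes, 29 or 30 were the same without 1 array and 30 with the median over arrays. A single array stood apart for 22 genes, for 2 genes at 2 log2 units and for 37 genes with no filter on the band.

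The median deviations of skeletal muscle, neutrophil and fibroblast genes kept their sign with centring and with genes above the band alone, where they were -0.94, -0.56 and 0.22. Median percentiles of the 39 lists fell by 0.471 to 11.6 points when Gm, Rik, Mir, Snor, Olfr and Vmn symbols were left out of the ranks, and moved by -2.16 to 3.45 points without 1 array. Values near the dim band have no reliable order.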
